A study of Macaca mulatta with 32 samples.

Results

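The circRNAs described here come from 7 host genes that encode regulators of transcription. Of these genes, 5 encode nuclear receptors (THRB, RORB, ESRRG, NR3C1 and NR3C2) and 2 encode Groucho-type corepressors (TLE1 and TLE4). Every circRNA whose host gene symbol in the deposited table was one of the 7 was taken, and RORA was not included. This gave 55 circRNAs of the 52828 in the table, with 12493 back-splice reads of 7159279, or 0.175% of all reads. A circRNA is a closed RNA ring made when the end of one exon is joined back to the start of the same or an earlier exon, and a read across that join is a back-splice read.

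The libraries came from the brains of 8 healthy rhesus macaques, and no genotype or drug separated the groups. RNA was pooled from 2 animals of the same age and sex for each library, and the 4 pools were females of 10 years, males of 10 years, females of 20 years and males of 20 years. Every pool was sampled in 8 regions, namely the prefrontal (PFC), posterior cingulate (PCC), temporal (TC), parietal (PC) and occipital cortex (OC), the hippocampal field CA1, the dentate gyrus (DG) and the cerebellar cortex (CB), which gave 32 libraries with 4 a region and 16 an age. Linear RNA was digested with RNase R before sequencing, so the values describe circular RNA and not the mRNA of the host gene. The tissue was bulk tissue, in which fewer cells of a type and less RNA per cell cannot be told apart, and since the 4 libraries of a region hold different pools while the 16 libraries of an age come from only 2 pools, p-values for age and sex treat libraries of the same animals as separate.

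Nuclear receptors are transcription factors whose activity is set by small lipophilic ligands or, in the orphan members, without a known hormone. THRB encodes thyroid hormone receptor beta, RORB a retinoid-related orphan receptor known as a marker of layer 4 neurons of the neocortex, ESRRG an estrogen-related orphan receptor that controls genes of oxidative metabolism, and NR3C1 and NR3C2 the glucocorticoid and mineralocorticoid receptors, both of which bind corticosteroids and of which the latter is known for its high level in the hippocampus. TLE1 and TLE4 bind no DNA themselves and are recruited by other transcription factors to repress genes, and TLE4 is a marker of deep-layer corticothalamic neurons.

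The most abundant circRNA of THRB and that of TLE1 were among the candidates that the study measured by RT-qPCR. Their divergent primers, which amplify only across a back-splice join, are shown, and the positions listed with them name the rings. The study listed the THRB ring at chr2:166765220-166782526 for 20 y and the TLE1 ring at chr15:90413617-90415753 for PCC, a choice made on these same samples and so no independent evidence of either pattern. A second primer pair was listed for circular THRB without a position, and capitals mark the 12 bases of the forward primer and the 19 bases of the reverse primer that it shares with the pair of the candidate list. The pair for linear THRB mRNA is shown for contrast.
circTHRB forward, candidate list: ggtcacctgaGTGAGTGTTACA
circTHRB reverse, candidate list: GGACAGCCAACCAGAAGGAa
circTHRB forward, other pair: GTGAGTGTTACAgcgagaagg
circTHRB reverse, other pair: GGACAGCCAACCAGAAGGA
linear THRB forward: accgagaacacgactggaag
linear THRB reverse: tgagatgtggcgacgactg
circTLE1 forward: gtgccaaacaggtgaccat
circTLE1 reverse: ctgagacagaaatgggatgact

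The depth differed widely between libraries, from 18813 back-splice reads in the CB library of 10 y females to 894932 in the PCC library of 20 y females. Levels are given in the deposited unit, TPM, which here has no term for length and does not sum to one total: the values of a library summed to 107695 at the lowest and 352188 at the highest. In this unit 1 read was worth 18.7 TPM in the shallowest library and 0.306 TPM in the PCC library of 20 y females, and a level of 0 means fewer than 2 reads. In 5 libraries there were 55.9 to 141 reads per detected circRNA, against 8.24 to 43.7 in the other 27. The 5 were PFC and PCC of 20 y females, PC of 10 y males, and CA1 and DG of 20 y males. They are called the libraries with concentrated reads below. They were also deeper, with a median of 430956 back-splice reads against 166099, and did not all hold fewer circRNAs than others of their region. The study listed a higher mapping rate for each of them than for any other library. Of these 5, 4 were aged 20 years. The labelled regions were checked by the circRNAs of marker genes. The summed level of 15 genes of cerebellar neurons was 382 to 899 TPM in CB against 8.35 to 166 TPM elsewhere, although 7 of them, including CBLN1 and PCP2, were at 0 in CB. That of 11 genes of forebrain excitatory neurons was 0 to 21.0 TPM in CB, with 10 of them at 0, against 92.4 to 813 TPM elsewhere. That of 8 genes of the dentate gyrus and CA1 was 113.5 to 860.3 TPM in hippocampus against 8.85 to 187 TPM in the neocortex, with 5 of them, PROX1 included, at 0 in both.

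The 7 genes differed in how many rings they gave. THRB gave 27 circRNAs and 8543 reads, which was 68.4% of the reads of all members and ranked it 102nd of 8047 host genes. TLE4 followed with 1580 reads from 7 circRNAs, TLE1 with 836 reads from 5 and ESRRG with 820 reads from 6. The other nuclear receptors were sparse, with 279 reads from 4 circRNAs of NR3C2, 246 reads from 5 of NR3C1 and 189 reads from the single circRNA of RORB.

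Most of the 55 circRNAs were rare. There were 25 circRNAs found in a single library, or 45.5%, against 55.1% of all circRNAs in the table. The abundance filter of the study kept 21 of the 55, and these 21 held 97.3% of the members' reads. The deposited annotation called 30 of them exonic and 25 intronic, and the exonic ones held 88.0% of the reads. The distance between both ends on the genome had a median of 19393 bases, from 261 to 189243, against a median of 6279 bases over all circRNAs with a host gene.

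**Figure D1:**
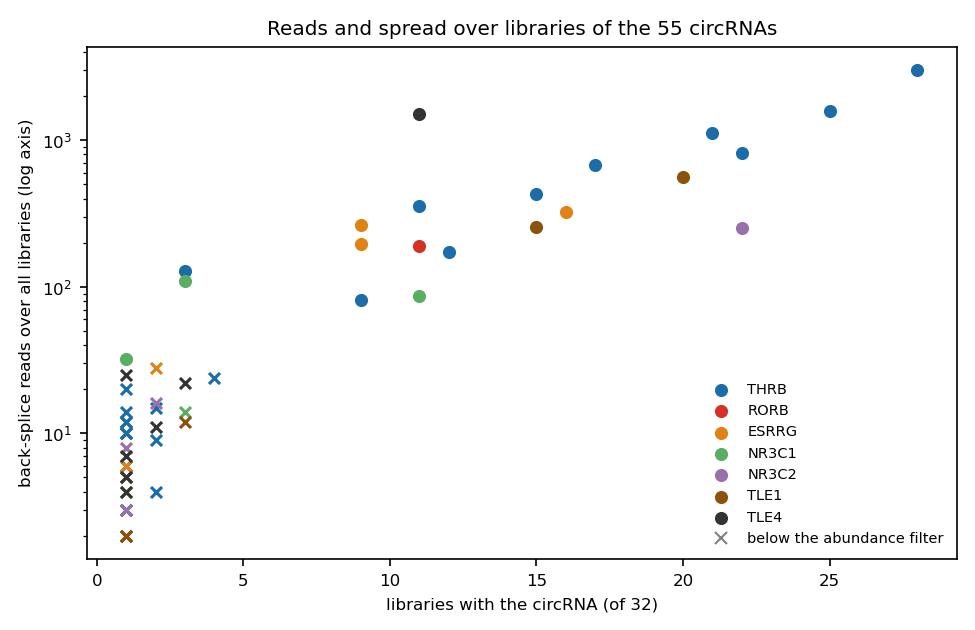
Each point is 1 of the 55 circRNAs, placed by the number of libraries with it (of 32) and by its back-splice reads over all libraries (log axis); colours give the host gene and crosses mark the circRNAs below the abundance filter. The circRNA with most reads, from THRB, was found in 28 libraries, while the leading circRNA of TLE4 reached 1506 reads in only 11 libraries.

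The circRNAs of THRB lay on the minus strand of chromosome 2 between 166588963 and 166939150, as numbered in the table (the genome build is not given in the sources used here). Numbered by their reads, circTHRB-1 (chr2:166765220-166782526, exonic) had 3004 reads in 28 libraries, or 35.2% of the reads of the gene. The ring circTHRB-2 (chr2:166647363-166647623, exonic) spans only 261 bases and had 1579 reads in 25 libraries. It was followed by circTHRB-3 (chr2:166647363-166679397, exonic) with 1128 reads in 21 libraries. The next in order were circTHRB-4 (chr2:166679334-166782526, exonic) with 817 reads in 22 libraries and circTHRB-5 (chr2:166647363-166782526, exonic) with 682 reads in 17 libraries.

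These rings shared their ends. A total of 6 circRNAs with 53.3% of the THRB reads used the position 166782526, on the upstream side of the gene, and 11 circRNAs with 45.3% of the reads used the position 166647363. The position 166765220 was used by 3 circRNAs with 38.7% of the reads. By genome position the 27 circRNAs had 12 distinct lower ends and 16 distinct upper ends, of which a few carried most reads. The circRNA at chr2:166938858-166939150, with 10 reads in a single library, was listed on the plus strand, opposite to the gene, and its assignment to THRB is uncertain.

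The make-up of the THRB reads differed between regions. In PFC, circTHRB-1 held 25.5% of the 2269 THRB reads, and in PC it held 27.2% of 1701. In TC and OC its share was 47.8% of 858 reads and 47.6% of 605 reads. In DG it reached 80.3% of 319 reads, with 71.9% to 88.5% in the single libraries. This range lay above the highest library share in each of the 5 neocortical regions and CA1 (69.2%, in OC). The DG libraries had only 26, 35, 32 and 226 THRB reads in 10 y females, 10 y males, 20 y females and 20 y males. Rings with fewer than 2 reads in a library are not listed, and the part of this in the shares was not tested. How often other host genes differ in this way was not counted. In CB it was 93.5%, but this is 29 of 31 reads and 1 CB library had none. The other 2 CB reads came from circTHRB-4. These shares were not tested.

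**Figure D2:**
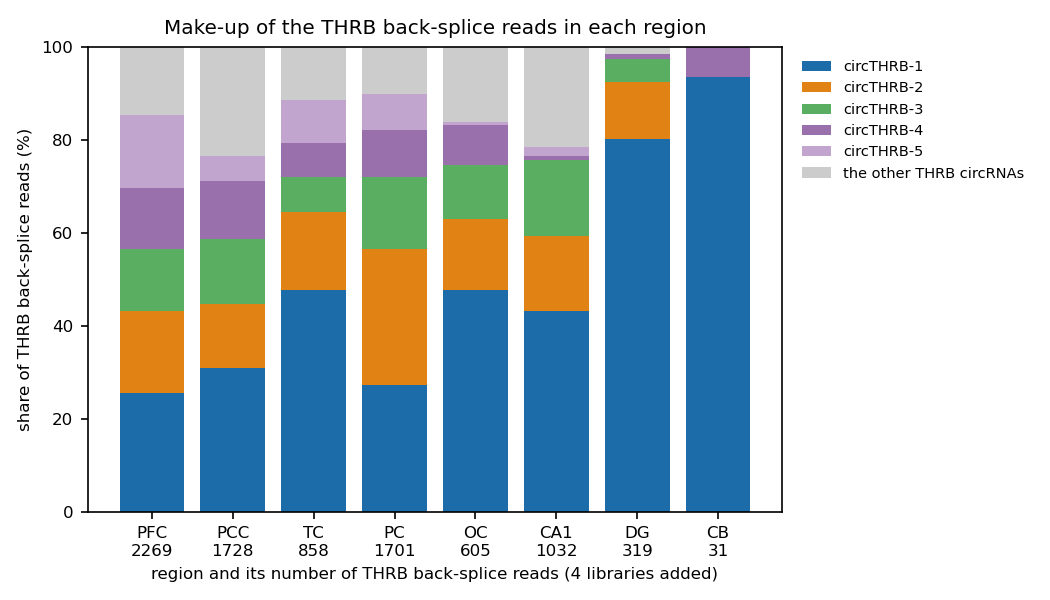
Stacked bars give the share (%) of the THRB back-splice reads that each of the 5 most abundant THRB circRNAs, and all others together, held in each region, with the reads of the 4 libraries added and their number under each bar. The share of circTHRB-1 ran from 25.5% in PFC to 80.3% in DG and 93.5% of only 31 reads in CB.

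The summed circRNA level of THRB was lower in CB than in the other regions. In the 4 CB libraries it was 149.8 TPM in 10 y females, 13.5 TPM in 10 y males, 0 in 20 y females and 30.8 TPM in 20 y males. The value of 10 y females, which stands for 8 reads in the shallowest library, fell well inside the range of the other 28 libraries, from 22.8 to 664 TPM, and that of 20 y males lay above only the OC library of 10 y males at 22.8 TPM. The mean was 48.5 ± 68.7 TPM (SD, n = 4) against 274 TPM, a ratio of 5.64.

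By limma, fitted over 3834 host genes with age and sex as covariates, the log2 difference in CB was -3.46 with an SE of 0.499 (95% interval -4.44 to -2.48), and THRB passed at an adjusted p of 1.74e-09. This made 1 of the 7 genes called in CB, where 7.33% of all host genes tested were called in either direction and 3.44% were called lower. It was also the only 1 of the 7 called in any region, against 8.95% of all host genes. At an unadjusted p under 0.05, 2 of the 7 passed in CB (THRB and TLE1), against 19% of all. The exact two-sided permutation test on TPM over 35960 choices of 4 libraries gave p = 0.00556 for THRB and 0.0896 after adjustment over all host genes. The fitted difference was called under all 15 alternatives, and its size moved from -2.42 without the pool of 20 y females, which holds the CB library at 0, to -4.48 without the shallow CB library of 10 y females. Genes of cerebellar and of forebrain excitatory neurons moved with this difference, as given above, and their part in it was not tested.

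The other regions can be placed in order by their mean THRB level. It was 398 ± 118 TPM in TC, 394 ± 188 in PFC, 377 ± 52.0 in PCC and 309 ± 41.5 in PC (SD, n = 4 each). Below these came 192 ± 66.0 TPM in CA1, 145 ± 56.2 in DG, 102 ± 53.5 in OC and then CB. Only between PC and CA1 did neighbours in this order not overlap: the PC libraries had 269.6, 343, 346 and 276 TPM, and the CA1 libraries 101, 211, 201 and 257 TPM, in the order 10 y females, 10 y males, 20 y females and 20 y males. Within the neocortex OC stood lowest, with 133, 22.8, 136 and 116 TPM in the same order, below every library of PFC, PCC, TC and PC. None of these passed the test: by limma the log2 difference from the mean of the other 7 regions was 1.33 in TC (adjusted p = 0.360), 1.25 in PFC (adjusted p = 0.518), 1.30 in PCC (adjusted p = 0.565) and -1.13 in OC (adjusted p = 0.998). Modelled as reads with voom, the PFC difference was the only one of these 4 to pass, at 1.56 and an adjusted p of 7.58e-05. That setting called more genes in PFC, 67 of the 3834 host genes against 11 in the main fit.

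**Figure D3:**
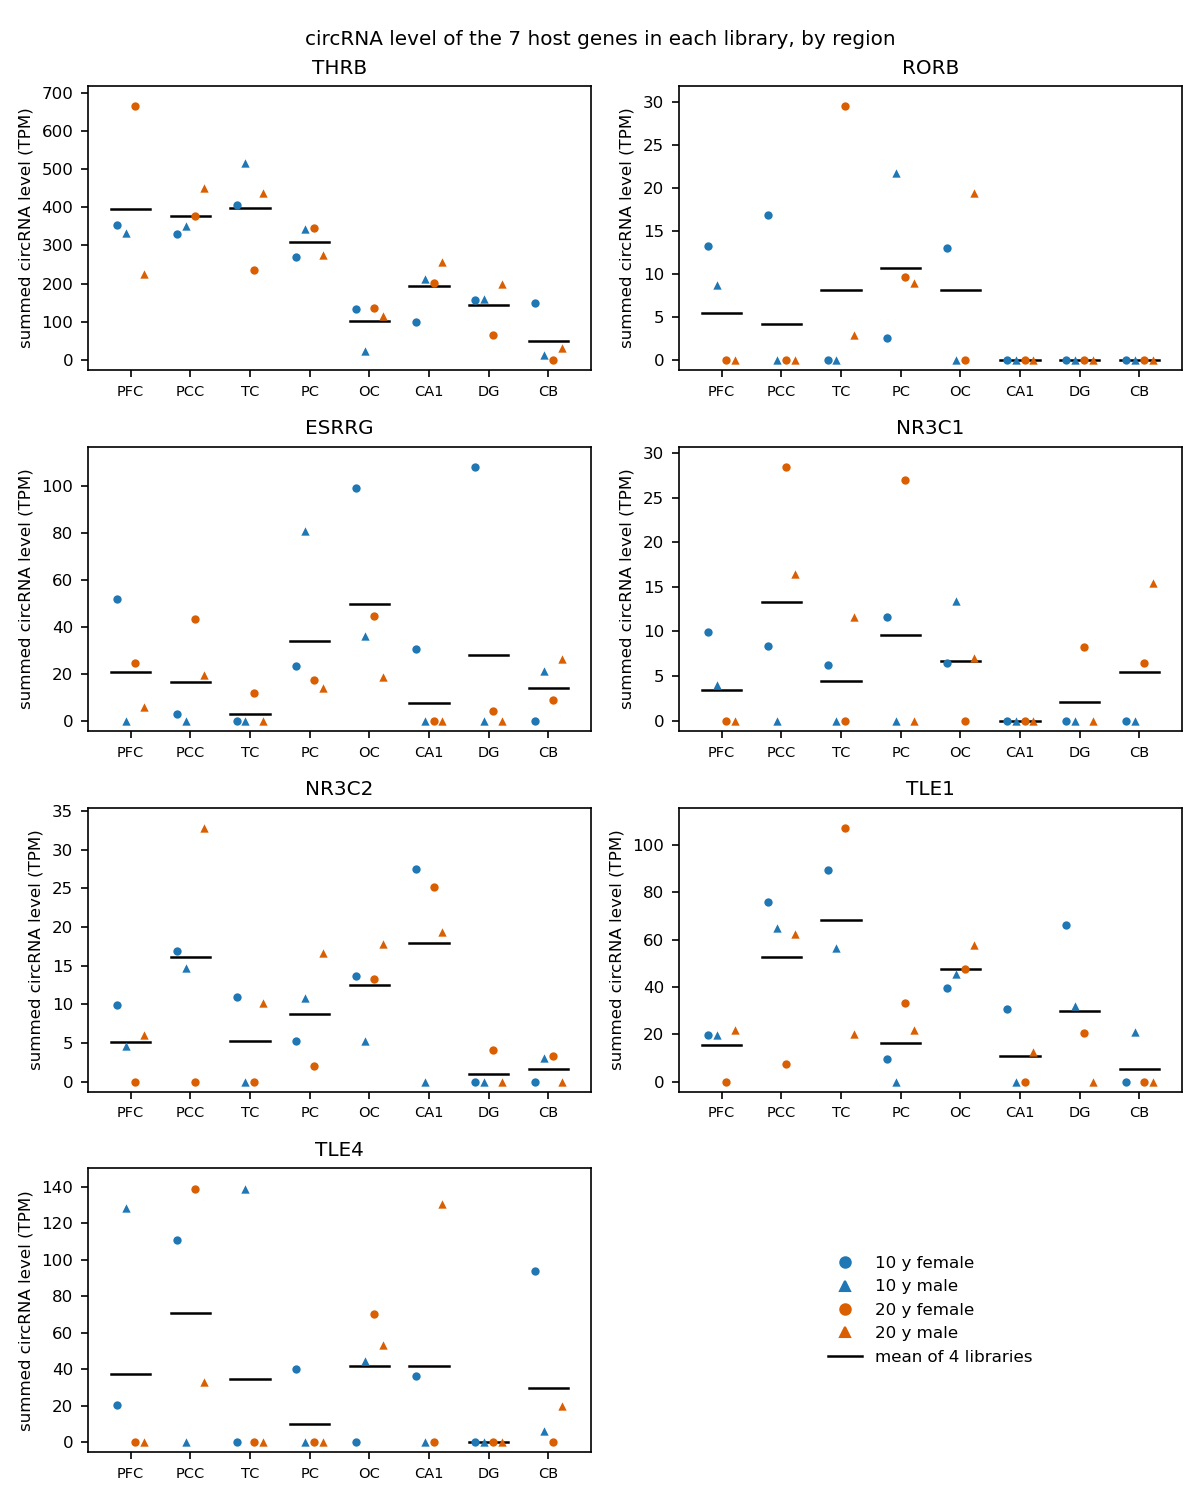
Points give the summed circRNA level (TPM) of each host gene in each of the 32 libraries, grouped by region, with colour for age, shape for sex and a bar for the mean of 4 libraries; each panel has its own scale. THRB was found in 31 libraries and lay lowest in CB, and RORB was above 0 only in neocortical libraries.

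Of the single rings, circTHRB-2 was called lower in CB. It was 0 in all 4 CB libraries and was found in 25 of the 28 others. Its mean was 90.7 ± 4.51 TPM in PC, where the 4 libraries lay within 85.6 to 96.5 TPM, 83.9 ± 67.0 in TC, 76.8 ± 44.5 in PCC and 63.8 ± 46.5 in PFC. It was 42.3 ± 33.3 TPM in CA1, 17.1 ± 16.2 in DG and 15.1 ± 9.15 in OC. The neocortical order thus again had OC lowest, with 8.28 to 27.8 TPM.

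The limma log2 difference of circTHRB-2 in CB was -3.88 with an SE of 0.897 (adjusted p = 0.00192 over 17050 circRNAs), a size that depends on the pseudocount, since CB was at 0. It was called under all 15 alternatives, with values from -4.98 to -2.31. It was the only one of the 21 member circRNAs tested that was called in CB, where 2.46% of all circRNAs were called and 0.569% were called lower, and 46.8% of them were at 0 in all 4 CB libraries. In any region it was likewise the 1 called of the 21, against 3.73% of all circRNAs, and at an unadjusted p under 0.05, 5 of the 21 passed in CB, against 9.91%. The exact permutation test gave p = 0.0182 before and 0.366 after adjustment. The ring circTHRB-3 was also at 0 in all CB libraries but missed the threshold (log2 difference -2.85, adjusted p = 0.0557), and passed in 3 of 15 alternatives. For circTHRB-1, with 0 to 149.8 TPM in CB, the difference was -1.86 (adjusted p = 0.428).

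RORB gave a single exonic ring at chr15:83438419-83449331 on the plus strand. It was found in 11 of the 20 neocortical libraries and in none of the 8 hippocampal and 4 CB libraries. In PC all 4 libraries had it, at 2.59, 21.7, 9.68 and 8.94 TPM in 10 y females, 10 y males, 20 y females and 20 y males. Its highest value was 29.5 TPM, in TC of 20 y females, where the libraries of both 10 y pools were at 0. Over all host genes tested, 1.15% were at 0 in all 12 libraries outside the neocortex, and among the 1264 genes found in 8 to 14 libraries, as RORB was, 3.32% were. By limma the hippocampal minus neocortical log2 difference was -1.37 with an SE of 0.535 (adjusted p = 0.196), so the pattern did not pass the test. The median depth was 53016 reads in DG, 80654 in CA1 and 145806 in CB. In the neocortex it ran from 123206.5 in PCC and 153453.5 in TC to 344021 in PC. The ring was found in 1 of 4 PCC libraries and 2 of 4 TC libraries. The shallowest library with the ring was PCC of 10 y females, at 166099 reads. Outside the neocortex CA1 and DG of 20 y males (811958 and 273137 reads) were deeper. So were CB of 10 y males (176456) and of 20 y females (176435), and the rest were shallower. The part of depth in this pattern was not tested.

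ESRRG gave 6 exonic rings on the plus strand of chromosome 1 between 153710163 and 153909632. They fell in 2 sets: circESRRG-1 (chr1:153747633-153773988, 322 reads) and circESRRG-3 (chr1:153747633-153748048, 195 reads) share their start, and circESRRG-2 (chr1:153861111-153865080, 264 reads) lies downstream of both. The summed level was highest in OC, with 99.4, 36.2, 44.6 and 18.9 TPM in 10 y females, 10 y males, 20 y females and 20 y males, a mean of 49.8 ± 34.8 TPM (SD, n = 4). In TC only 1 of 4 libraries had any, at 11.8 TPM. The highest single value, 108 TPM, was in DG of 10 y females and came wholly from circESRRG-1, while the other DG libraries had 0, 4.11 and 0. For the gene the OC difference was 2.23 on the log2 scale with an SE of 0.878 (limma adjusted p = 0.837). It was called only with voom on the reads, a setting that called 38 host genes in OC against 1 in the main fit.

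The ring circESRRG-3 spans 416 bases and was found in every OC library. Its 4 OC libraries had 17.2, 19.7, 18.0 and 15.7 TPM, a mean of 17.6 ± 1.68 TPM, and the other 28 libraries had a mean of 2.61 TPM with 5 above 0, namely single libraries of PCC, CA1 and CB and 2 of PC. The groups overlapped, since the CA1 library of 10 y females had 21.3 TPM and the PC library of 10 y males 16.3 TPM. The exact permutation test gave p = 0.000695, which became 0.809 after adjustment over 17050 circRNAs, and limma gave a log2 difference of 2.55 with an SE of 0.682 (adjusted p = 0.130). It was not called in the main test, where 0.0176% of all circRNAs were called in OC, and it was called in 3 of 14 alternatives, at 2.71 (adjusted p = 0.0202) without the 5 libraries with concentrated reads and at 2.96 and 2.91 when libraries were rescaled.

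NR3C1 gave 5 rings on the minus strand of chromosome 6 between 139732254 and 139837098, each of them thinly read. The most abundant, circNR3C1-1 (chr6:139732254-139751646, exonic), had 110 reads, of which 93 came from the PCC library of 20 y females, 1 of the 5 with concentrated reads. The ring circNR3C1-2 (chr6:139835902-139837098, exonic) was spread more widely, with 86 reads in 11 libraries. Another, circNR3C1-3 (chr6:139732254-139837098), joins the outer ends of both and was seen in a single PC library with 32 reads. The summed level was 13.3 ± 12.1 TPM in PCC and 0 in all 4 CA1 libraries. Without the PCC library of 20 y females, at 28.4 TPM, the PCC mean was 8.28 TPM, below that of PC at 9.66 TPM. Of the 8 hippocampal libraries 1 had a read, against 12 of 20 in the neocortex. The hippocampal minus neocortical difference was -1.21 (SE 0.595, limma adjusted p = 0.325).

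NR3C2 was the only member whose reads were nearly all intronic by annotation. Its leading ring, circNR3C2-1 (chr5:140366341-140369118, minus strand), had 252 of 279 reads and was found in 22 libraries, as many as circTHRB-4. Of the 4 rings of the gene 3 used the position 140366341, with 98.9% of the reads. In CA1 the level was 27.4, 0, 25.1 and 19.3 TPM in 10 y females, 10 y males, 20 y females and 20 y males, a mean of 18.0 ± 12.5 TPM. In DG it was 0 in 3 libraries and 4.11 TPM in that of 20 y females. The level in CA1 was thus higher than in DG in 3 of 4 pools, but PCC had a mean of 16.1 ± 13.4 TPM and OC of 12.5 ± 5.28 TPM, and their libraries overlapped with those of CA1. The exact permutation test of CA1 against the other 28 libraries (7.18 TPM) gave p = 0.0212 before and 0.601 after adjustment, and limma gave a log2 difference of 1.07 with an SE of 0.834 (adjusted p = 0.750). For DG limma gave -1.46 (adjusted p = 0.479).

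TLE1 had 98.1% of its reads in a pair of rings on the minus strand of chromosome 15. They share their upstream end, at 90415753, and their downstream ends lie 30 bases apart. The ring circTLE1-1 (chr15:90413617-90415753, annotated as exonic) had 562 reads in 20 libraries and circTLE1-2 (chr15:90413587-90415753, annotated as intronic) had 258 reads in 15, with both found in 12 libraries. The candidate ring of the study for PCC, circTLE1-1, had 60.4, 64.9, 7.33 and 62.3 TPM in PCC in 10 y females, 10 y males, 20 y females and 20 y males, a mean of 48.7 ± 27.7 TPM. The low value was in 1 of the 5 libraries with concentrated reads. The other 28 libraries had a mean of 17.0 TPM, and those of TC of 20 y females, at 107 TPM, and DG of 10 y females, at 66.2 TPM, lay above all of PCC. The log2 difference in PCC was 2.16 with an SE of 0.881 (limma adjusted p = 0.312), and the exact permutation test gave p = 0.0266 before and 0.751 after adjustment.

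The summed level of TLE1 was 68.4 ± 38.3 TPM in TC, 52.6 ± 30.8 in PCC and 47.6 ± 7.54 in OC. The 4 OC libraries lay close together, at 39.6 to 57.7 TPM. In CB 3 of the 4 libraries were at 0 and that of 10 y males had 21.0 TPM. The CB log2 difference of -2.39 (SE 0.859) missed the threshold by limma (adjusted p = 0.0656) and passed in 3 of 15 alternatives, at an adjusted p of 0.0484 with libraries rescaled to one total, 0.0192 without the pool of 10 y males, which holds the only CB library with TLE1, and 0.0139 without the 5 libraries. For TC the exact permutation test gave p = 0.00528 before and 0.328 after adjustment, and limma a log2 difference of 1.97 (SE 0.859, adjusted p = 0.503).

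TLE4, on the plus strand of the same chromosome, had 1506 of its 1580 reads in a single exonic ring, circTLE4-1 (chr15:88325942-88364958), which was either absent or high. It was found in 11 libraries and never below 19.8 TPM, with a highest value of 139 TPM in PCC of 20 y females. The 5 libraries with concentrated reads held 57.5% of the TLE4 reads, against 38.8% of all reads, and for the other members this share ran from 8.01% for TLE1 to 43.8% for THRB. Of these 5 libraries, 2 (PCC of 20 y females and CA1 of 20 y males) had 455 and 454 TLE4 reads while the other 3 had none. In DG all 4 libraries were at 0, as were 20.1% of all host genes tested. Its DG difference of -2.42 (SE 1.10) did not pass (limma adjusted p = 0.367). TLE4 was called in no region, and its SD exceeded its mean in 5 of the 7 regions with TLE4 reads.

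Set against the neocortex as a whole, all 7 genes had a lower fitted level in hippocampus, and none passed. The log2 differences of CA1 and DG from the 5 neocortical regions ran from -1.37 for RORB to -0.45 for NR3C2, with limma adjusted p from 0.196 to 0.811, while the median over all 3834 host genes was -0.28. At an unadjusted p under 0.05, 2 of the 7 passed (RORB and NR3C1), against 14.7% of all host genes, and 2.16% of host genes were called after adjustment. None of the 21 circRNAs was called by limma, against 0.205% of all, and 7 passed at an unadjusted p under 0.05, against 6.72% of all. Of the rings named here circTHRB-4 had the smallest adjusted p, with a log2 difference of -2.26, an SE of 0.696 and an adjusted p of 0.169. It held 8 of the 1032 THRB reads in CA1 and 3 of the 319 in DG, against 300 of 2269 in PFC. It was called in 2 of 15 alternatives. The difference was -2.26 (limma adjusted p = 0.0422) among circRNAs found in at least 16 libraries and -2.42 (adjusted p = 0.0240) with voom. With voom, however, 2013 of the 17050 circRNAs were called in this comparison, against 35 in the main fit.

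**Figure D4:**
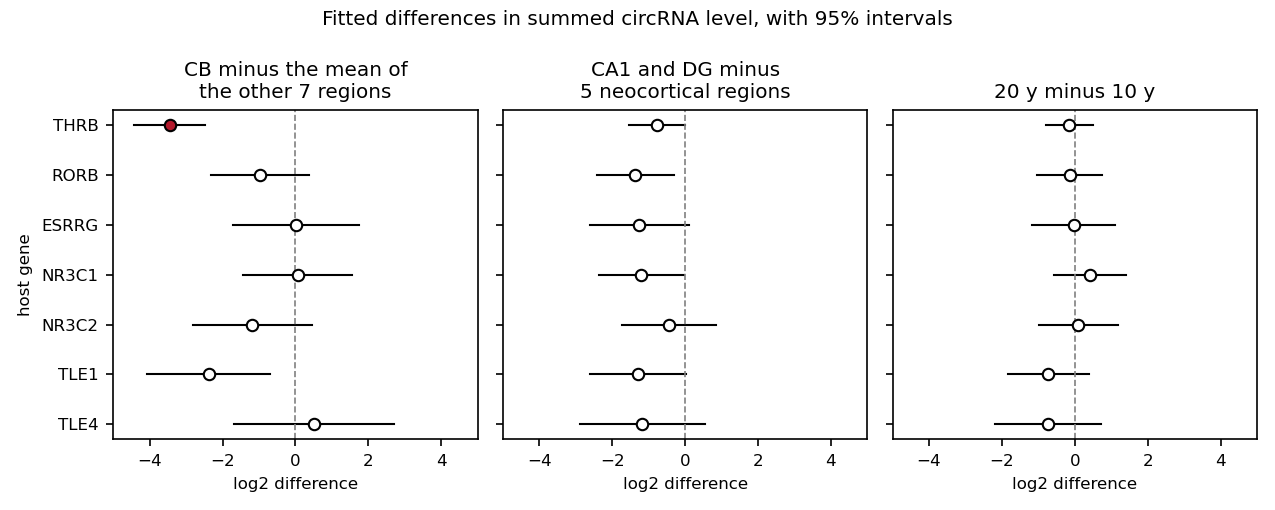
Points give the limma log2 difference in summed circRNA level for each host gene and lines its 95% interval, for CB against the mean of the other regions, for hippocampus against neocortex and for 20 y against 10 y; a filled point marks an adjusted p under 0.05. THRB in CB, at -3.46, is the only filled point.

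Age separated none of the 7 genes. The summed THRB level was 240.4 ± 143 TPM at 10 y and 251 ± 174 TPM at 20 y (SD, n = 16 each), with a log2 difference of -0.15 (SE 0.330, limma adjusted p = 0.979). TLE1 had a lowest, median and highest level of 0, 31.1 and 89.4 TPM at 10 y and of 0, 20.4 and 107 TPM at 20 y, with a difference of -0.73 (SE 0.568, limma adjusted p = 0.848). Of the 7 genes none was called for age by limma, against 0.0522% of all host genes, and at an unadjusted p under 0.05 none passed either, against 6.36% of all. For sex none was called, against 0.0261% of all host genes, and none passed unadjusted, against 6.81%.

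No ring of THRB was called for age. The candidate of the study for 20 y, circTHRB-1, had a lowest, median and highest level of 0, 83.2 and 221 TPM at 10 y and of 0, 104 and 220.3 TPM at 20 y. Its log2 difference of 0.80 had an SE of 0.591 (limma adjusted p = 0.806), and the permutation test of 100000 draws gave p = 0.390. In CA1 circTHRB-1 was 0 in both 10 y libraries and 113 and 120 TPM in females and males of 20 y. Both 20 y libraries lay above both 10 y ones in CA1 and OC, and elsewhere the ages overlapped. With so few libraries of an age in a region, such a separation often arises by chance. Its share over all circRNAs was not counted. Age was not tested within single regions. The study also reported RT-qPCR of a THRB circRNA in hippocampal tissue of both ages. It stated that the sequencing changes of the circRNAs so measured correlated in general with RT-qPCR. The ring circTHRB-2 had 0, 75.2 and 175 TPM at 10 y and 0, 24.8 and 89.9 TPM at 20 y. Its mean level was 66.6 ± 51.9 TPM at 10 y and 30.8 ± 30.4 TPM at 20 y, and the ages overlapped.

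By pool the mean of circTHRB-2 over 8 regions was 58.2 TPM in 10 y females and 74.9 TPM in 10 y males. It was 20.8 TPM in 20 y females and 40.8 TPM in 20 y males, so that both older pools lay below both younger ones. Such a separation often arises by chance with so few pools of an age. How many of all circRNAs show it was not counted. The tests of circTHRB-2 for age were made over libraries, not over pools. The permutation test gave p = 0.0239 but an adjusted value of 1 over all circRNAs, and limma gave -1.05 with an SE of 0.593 (adjusted p = 0.806), a value that was -1.02 without the 5 libraries. None of the 21 circRNAs was called by limma for age, against 0.0117% of all circRNAs, or for sex, against 0.0235%. At an unadjusted p under 0.05, 1 passed for age, the ring at chr2:166765220-166929409, against 4.65% of all, and none for sex, against 4.94%. This ring was found in only 3 libraries, single ones of PFC, TC and CA1, with 129 reads. The smallest adjusted p of an age difference that depended on sex or on hippocampus was 0.788.

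**Figure D5:**
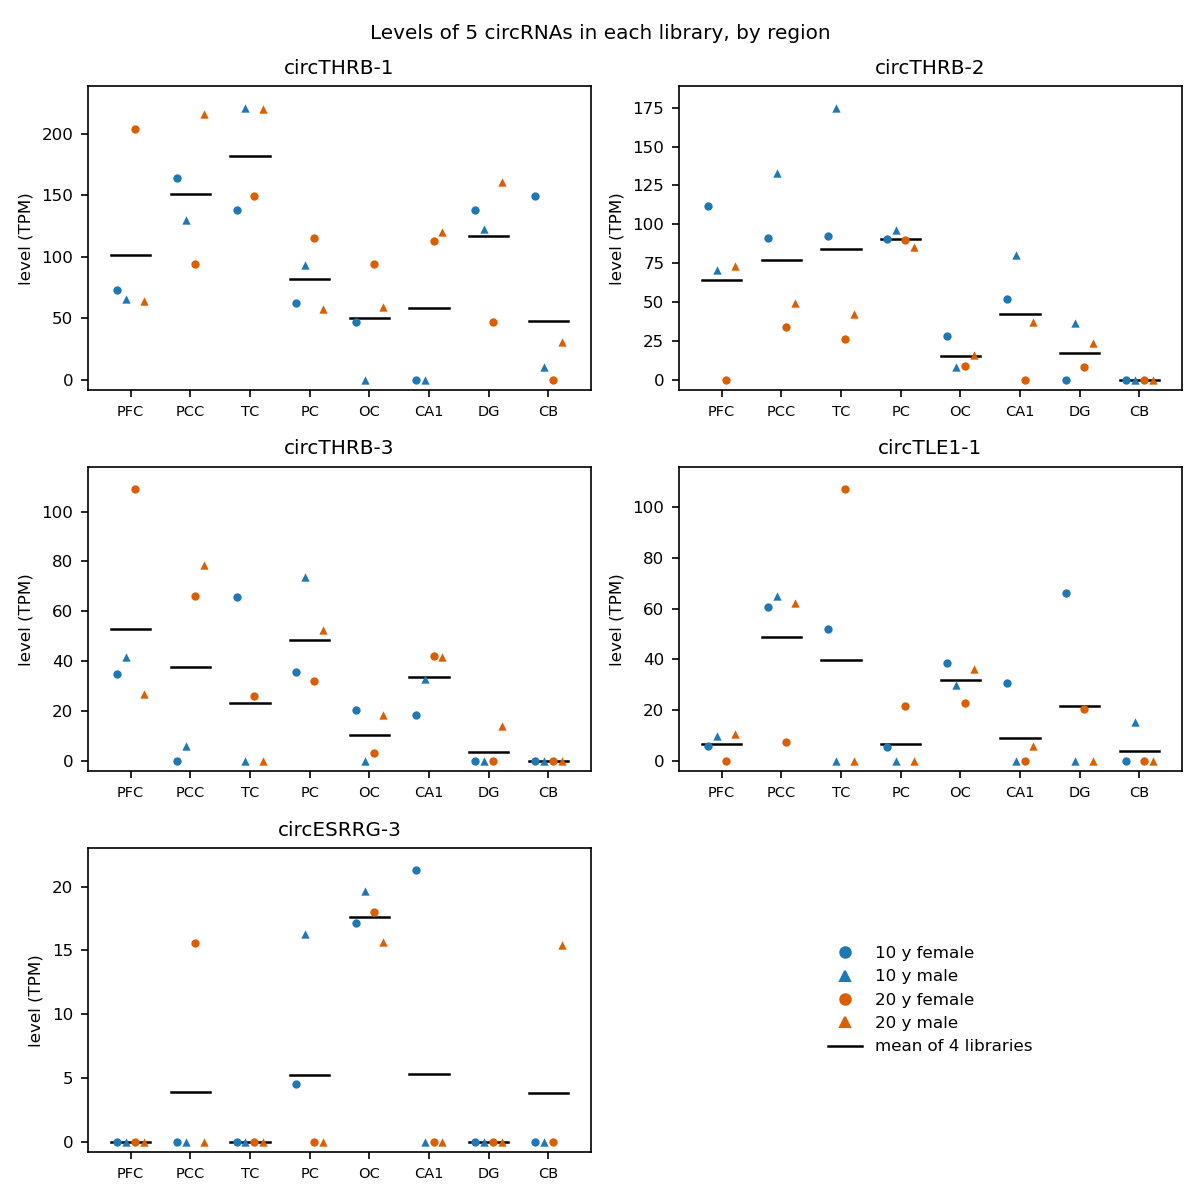
Points give the level (TPM) of 5 circRNAs in each of the 32 libraries, grouped by region, with colour for age, shape for sex and a bar for the mean of 4 libraries; each panel has its own scale. The ring circTHRB-2 is at 0 in all 4 CB libraries, and circESRRG-3 lies at 15.7 to 19.7 TPM in the 4 OC libraries.

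The genes that work with these receptors and corepressors were counted from fixed lists. Of 42 other nuclear receptor genes 14 had a circRNA in the table and 4 were tested, and none was called in any region, for hippocampus, age or sex. Of 27 coregulators, the proteins through which receptors activate or repress genes, 26 had a circRNA and 17 were tested. Among these 1 was called in CB, against 7.33% of all host genes: HDAC9, a histone deacetylase, with 131 TPM in CB against 456 TPM in the other regions (log2 difference -1.69, SE 0.431, limma adjusted p = 0.00329). Of 26 genes that act with Groucho proteins 13 had a circRNA and 4 were tested, and 1 was called in CB, FOXP1, a forkhead repressor, with 0.542 TPM against 40.8 TPM (log2 difference -3.31, SE 0.838, limma adjusted p = 0.00305). Of 15 genes of hormone transport, metabolism and receptor chaperoning 6 had a circRNA and 1 was tested, with no call. The median CB difference was 0.28 for the 17 coregulators, -0.69 for the 4 nuclear receptors and -0.64 for the 4 Groucho partners, beside 0.05 for all host genes.

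The host genes whose summed level most resembled that of THRB over the 32 libraries were GDAP1L1, NFASC and RAPGEF5, with Pearson's r of 0.87, 0.83 and 0.81 on the log2 scale among 1443 host genes found in at least 24 libraries. The points share library depth and region. For the other members the highest r was lower, from 0.46 for NR3C1 (with PEX6) to 0.65 for TLE1 (with GALNT14), with 0.62 for ESRRG (IFT122), 0.62 for NR3C2 (FAM164A), 0.60 for TLE4 (PRKAA1) and 0.55 for RORB (SETD3). Between the members themselves r ran from -0.18 for THRB and ESRRG to 0.32 for NR3C2 and TLE1.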

How the data were processed

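RNA of 2 animals per library was digested with RNase R and sequenced. The authors trimmed reads with Cutadapt, aligned them with bwa to a rhesus genome whose build is not given in the sources used here, called circRNAs with CIRI2 at 2 or more back-splice reads, and deposited 1 table of TPM values without pooling libraries. In each library the deposited TPM values were whole multiples of a step (99.9995% of 197702 values within 0.01 TPM), with a smallest value of 2 steps, and reads were recovered from that step. Intervals are not given for counts, since amplified copies cannot be told from separate molecules.

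Host gene levels are summed TPM over all circRNAs with a symbol. The study's filter on recovered reads (3 or more counted as expressed) kept 17050 circRNAs, and 3834 host genes above 0 in at least 8 libraries were tested. limma 3.58.1 (R 4.3.3, trend and robust) was fitted on log2(TPM + 2.455), with region, age and sex as terms and a pseudocount that is the median of each library's lowest nonzero TPM, and Benjamini-Hochberg adjustment over all features. Fold changes are on this scale, which understates the change of low features. Exact permutation tests used NumPy 2.4.6. Named circRNAs are each gene's most read ring, the next ones in rank up to 3 where they hold at least 10% of its reads, those called, and the study's candidates; circTHRB-4 and circTHRB-5 were named after their values were seen. The 7 genes and all lists were chosen with earlier results of these data known. Pools pair the libraries, since the same animals gave all regions; the median correlation of deviations from region means was 0.02 within and -0.01 between pools. The limma script was tested on simulated counts drawn independently for each library, without shared pools or libraries with concentrated reads.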

Additional observations from a re-analysis of the deposited data

Results flagged for a closer look

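In each group of 4 libraries the highest or lowest value was checked for a gap to its nearest neighbour that, as a share of the whole range, was above Dixon's 95% critical value for 4 samples. This was done for 73 groups with a range above 0, and 15 had such a gap, where chance flags about 1 in 20 groups; values at 0 in several libraries make such gaps common. The values below are in TPM, and their causes were not tested.

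For RORB the libraries were PCC of 10 y females (16.87, the other 3 at 0) and TC of 20 y females (29.48, the next 2.9). For ESRRG they were TC of 20 y females (11.8, the others at 0), PC of 10 y males (80.84, the next 23.33), CA1 of 10 y females (30.47, the others at 0) and DG of 10 y females (108.29, the next 4.11). For NR3C1 and NR3C2 the DG library of 20 y females stood out in both, at 8.21 and 4.11 with the others at 0. For TLE1 the PFC library of 20 y females was at 0 with the next at 19.62, and the CB library of 10 y males was at 21.04 with the others at 0. For TLE4 the libraries were PFC of 10 y males (128.17, the next 20.68), TC of 10 y males (138.94, the others at 0) and PC of 10 y females (40.18, the others at 0).

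Of the 3 leading THRB rings, circTHRB-1 stood out in PFC of 20 y females (203.75, the next 72.8), and circTHRB-3 in DG of 20 y males (14.06, the others at 0). The PFC library of 20 y females, PC of 10 y males and DG of 20 y males are among the 5 libraries with concentrated reads.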

How the results depend on the processing

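Of the 7 host genes 1 was called in any region (THRB in CB), which became 2 with libraries rescaled to one total and without the 5 libraries with concentrated reads (TLE1 in CB added in both), and 2 with voom on the recovered reads, where THRB passed in CB and PFC and ESRRG in OC; leaving out 1 pool gave 1 to 2. Over all host genes 8.95% were called in any region, and 8.63% at one total, 10.7% with voom and 9.34% without the 5 libraries. Of the member circRNAs 1 was called in any region. This count became 2 with circRNAs above 0 in at least 16 libraries, 2 without a filter and 2 with libraries rescaled to one total. It became 3 with size factors, 2 with voom and 2 without the 5 libraries. In the same order the shares over all circRNAs were 7.30%, 5.47%, 3.65%, 3.93%, 2.48% and 4.55%, against 3.73% in the main fit. The number of member circRNAs tested also changed with the filter. For hippocampus a count of 0 became 1 with the stricter filter and 1 with voom, circTHRB-4 in both, and for age 0 became 1 by the unpaired test on TPM at an unadjusted p under 0.05. The fit with the pool as replicate block kept 1 host gene and 1 circRNA called by region and 0 for hippocampus, and changed no call. Of 42 differences of single genes and rings, some turned sign, none of them called. Without the 5 libraries THRB in CA1 was -0.0068 and NR3C1 in CB -0.0364. With voom THRB for age was 0.0737 and NR3C2 in hippocampus 0.16. THRB for age was 10.6 TPM in the unpaired test and 0.11 without the shallow CB library, where TLE4 in CB was -0.37. ESRRG in CB was -0.11 with a pseudocount of 10 TPM and -0.0734 at one total. With 1 pool left out the ranges were -0.0753 to 0.56 for THRB in CA1, -0.6865 to 0.39 for THRB for age, -0.64 to 1.1508 for ESRRG in CB, -0.53 to 0.5839 for NR3C1 in CB and -0.28 to 1.1885 for TLE4 in CB. Over all features the CB calls numbered 281 host genes (156 to 352 under alternatives) and 420 circRNAs (211 to 2889), and the host gene calls split into 149 higher and 132 lower, or 104 and 156 at one total. Hippocampal calls over all circRNAs numbered 35, and 2013 with voom. The planned count model (edgeR) was not run, because values under 2 reads are missing from the table; voom, leaving out the shallow CB library and the NR3C1 mean without 1 PCC library were added after the data were seen. Depth limits the sparse genes: at 18813 reads a single ring must hold 2 reads, 37.4 TPM, to be listed in the shallowest library.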
